A study of Mus musculus with 12 samples.

Results

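The genes described are 9 genes of the blood-testis barrier, chosen by name: the tight junction strand genes Cldn3, Cldn11 and Ocln, the junctional adhesion molecule genes F11r, Jam2 and Jam3, the cytoplasmic plaque genes Tjp1 and Cgn, and the gap junction gene Gja1. They are 9 of the genes on 36987 rows of the spermatocyte files, where each had a row, and 8 of them had a row among the 25911 rows of the GC2 files. Cldn11 was not analysed here in GC2 cells. Where a name stood on several rows, the row with the highest mean was taken, which touched Tjp1 and Jam2 in GC2 cells.

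RNA sequencing was done on 12 mouse libraries in 4 groups of 3: Phb knockdown GC2 cells, control GC2 cells, spermatocytes from Phb conditional knockout mice, and spermatocytes from control mice. GC2 is an immortalised mouse line that the labels call spermatocytes. The spermatocytes were enriched by flow sorting on a Hoechst DNA stain after collagenase and trypsin digestion of the tubules. Phb encodes prohibitin, a scaffold protein of the mitochondrial inner membrane. No source used here gives the Cre driver of the knockout, the age of the mice, any pooling of animals or the way the knockdown was made.

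The blood-testis barrier is built by neighbouring Sertoli cells, the somatic nurse cells of the seminiferous tubule, and it splits the epithelium into a basal compartment with spermatogonia and an adluminal compartment with later meiotic cells. Claudins and occludin form the strands that seal the space between cells, junctional adhesion molecules join the membranes beside them, and plaque proteins such as ZO-1 and cingulin tie the strands to actin. Basal ectoplasmic specializations, desmosomes and connexin43 gap junctions lie in the same belt, which opens and reforms as spermatocytes pass through it.

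Promoter sequences are shown as a description, and a link between them and the changes of the genes was not tested. RefSeq (GRCm38.p6) gave 8 promoter windows for 7 of the genes, each from 250 bases before to 50 bases after an annotated start. Jam2 and Jam3 had no entry. The 5 windows below are those of the gene with the largest rise (Cldn11), the 1 gene that fell in knockout libraries (Cldn3), 2 genes that rose in both comparisons (F11r and Cgn) and the gap junction gene (Gja1). They are written 5′ to 3′ on the strand of the gene, and capitals mark each GC box (GGGCGG on either strand).
Cldn11 (chr3:31149670-31149969, plus strand): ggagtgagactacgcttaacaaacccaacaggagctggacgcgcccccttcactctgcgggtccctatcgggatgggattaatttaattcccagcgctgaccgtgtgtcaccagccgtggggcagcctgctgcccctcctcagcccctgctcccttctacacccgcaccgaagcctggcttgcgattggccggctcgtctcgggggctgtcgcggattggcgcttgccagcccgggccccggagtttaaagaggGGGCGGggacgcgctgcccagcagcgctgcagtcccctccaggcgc
Cldn3 (chr5:134985964-134986263, plus strand): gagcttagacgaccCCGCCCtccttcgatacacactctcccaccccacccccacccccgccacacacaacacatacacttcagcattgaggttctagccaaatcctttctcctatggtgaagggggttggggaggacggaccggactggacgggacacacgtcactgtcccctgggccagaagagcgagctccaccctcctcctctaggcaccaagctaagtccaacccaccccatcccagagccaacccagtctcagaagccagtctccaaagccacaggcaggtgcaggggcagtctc
F11r (chr1:171437311-171437610, plus strand): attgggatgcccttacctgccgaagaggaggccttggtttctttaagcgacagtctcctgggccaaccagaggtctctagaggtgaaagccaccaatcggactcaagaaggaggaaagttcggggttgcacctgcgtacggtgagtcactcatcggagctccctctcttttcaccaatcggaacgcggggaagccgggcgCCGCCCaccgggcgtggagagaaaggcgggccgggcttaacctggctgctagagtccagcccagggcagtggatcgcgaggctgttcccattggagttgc
Cgn (chr3:94786433-94786732, minus strand): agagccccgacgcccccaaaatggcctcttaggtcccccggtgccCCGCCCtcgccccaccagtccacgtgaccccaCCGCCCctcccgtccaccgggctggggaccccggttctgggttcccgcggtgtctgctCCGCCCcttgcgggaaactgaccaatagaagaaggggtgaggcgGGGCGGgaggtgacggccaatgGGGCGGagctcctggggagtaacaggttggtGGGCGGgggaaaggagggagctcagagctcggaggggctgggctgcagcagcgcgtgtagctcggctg
Gja1 (chr10:56377050-56377349, plus strand): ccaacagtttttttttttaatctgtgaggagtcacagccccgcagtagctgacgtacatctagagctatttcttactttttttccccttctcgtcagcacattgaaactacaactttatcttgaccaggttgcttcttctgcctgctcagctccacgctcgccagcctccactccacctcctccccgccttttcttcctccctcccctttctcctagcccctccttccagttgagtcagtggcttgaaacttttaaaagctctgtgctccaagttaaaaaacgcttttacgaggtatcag
A GC box stood in 7 of the 8 windows, all but that of Gja1, and in 35.7% of all 32851 RefSeq promoter windows of this length. The 2 windows of Ocln overlap in part, and both are counted among the 7. The Cgn window held 6 GC boxes, 3 on each strand. A CCAAT box (CCAAT, either strand) stood in the windows of F11r, Cldn11 and Cgn and in 1 of the 2 Ocln windows, against 37.4% of all windows. The GATA motif AGATAA stood in the Gja1 window alone (11.2% of all windows) and the E-box CACGTG in that of Cgn alone (7.15%), while the SOX motif AACAAT (10.7%) and the cyclic AMP response element TGACGTCA (1.79%) stood in none of the 8. The GC content was 47.7% in the Gja1 window and 60.3% to 70.3% in the other 7, with a median of 52.7% over all windows. Such matches are letters in a window and do not show that a factor binds.

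Values are FPKM, fragments scaled per kilobase of transcript and per library size, as deposited. FPKM is scaled per length, so that levels of different genes can be set side by side within a library. Changes were tested with limma on log2(FPKM + 1), on rows that reached 1 FPKM in 3 or more of 6 libraries. A row under 1 FPKM in every library of 1 group passes only through the other group, so its direction was largely set by the filter. A gene was called where the two-sided p, adjusted over all such rows after Benjamini and Hochberg, was under 0.05. In GC2 cells Phb was at 22.66, 18.37 and 19.02 FPKM in knockdown and 56.62, 53.99 and 52.36 in control libraries (log2 difference -1.40, adjusted p = 0.00062). In spermatocytes it was at 11.81, 11.33 and 11.53 FPKM in knockout and 12.6, 13.35 and 13.86 in control libraries, a log2 difference of -0.18 (adjusted p = 0.0074), so Phb itself tells little of how complete the knockout was in these cells.

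The labelled cell types were set against marker lists. In control spermatocytes the 11 pachytene and diplotene markers summed to 2551 to 2601 FPKM, and in knockout spermatocytes to 46.8 to 49.1, with all 11 called lower. At least Pgk2 of these passed the filter through its control libraries alone. The 22 Sertoli cell markers, none of them among the 9 genes, summed to 5419 to 5619 FPKM in knockout and 1292 to 1387 in control libraries. Of these, 20 were called higher and 0 lower (median log2 difference 1.79), against 40.9% higher and 38.5% lower over all tested rows. The row of Tsx, among the 20, passed the filter through its knockout libraries alone. None of the 22 was at 0. In GC2 cells 7 of the 11 pachytene and diplotene markers had a row, and 5 of these stayed under 1 FPKM in every library. Among the 5, the testis lactate dehydrogenase gene Ldhc was at 0, 0 and 0.01 FPKM in knockdown and 0 in each control library. Mybl1, the most abundant, was at 2.44, 2.72 and 2.07 FPKM in knockdown and 2.03, 2.74 and 2.53 in control libraries. Hspa2 was at 0, 4.64 and 4.68 FPKM in knockdown and 0 in each control library.

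The first comparison set Phb knockout spermatocytes against control spermatocytes. Of the 9 genes, 8 were called higher in knockout libraries and 1, Cldn3, lower, and the groups did not overlap for any of the 9. Over all 15957 tested rows 79.4% were called, 40.9% higher and 38.5% lower, and in 81.8% the groups did not overlap, so that calls and separate groups are common here. Of the calls 51.6% were higher, against 62.0% with quantile normalization. The median log2 difference of the 9 genes was 1.68, beside 0.047 for all tested rows. Sertoli markers rose and spermatocyte markers fell in the same libraries, as given above, and the part of this shift in the results was not tested. In sorted but mixed RNA, more cells of a type and more RNA per cell cannot be told apart.

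**Figure D1:**
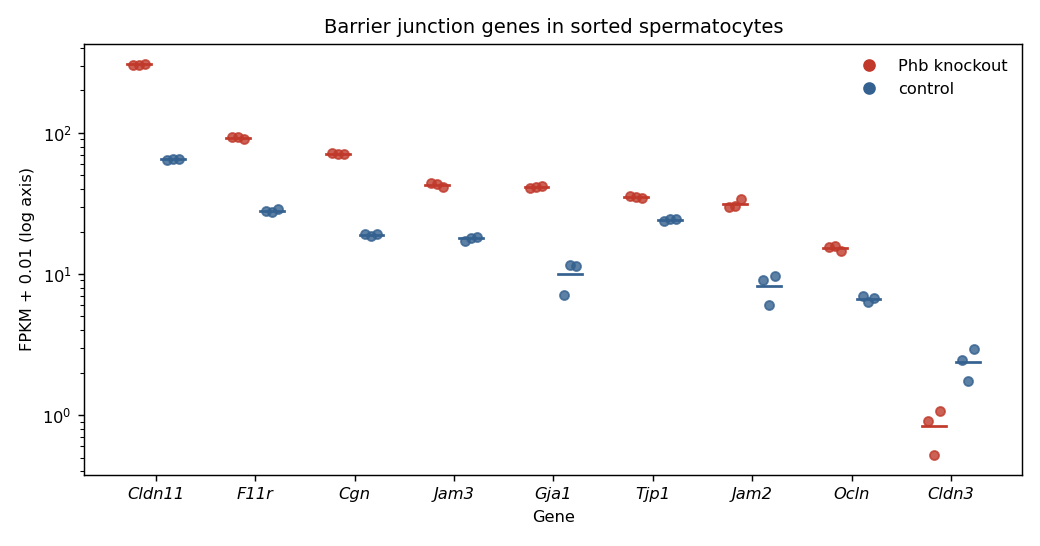
FPKM of the 9 genes in each spermatocyte library on a log axis (0.01 was added for display), knockout libraries in red and control libraries in blue, with a bar at each group mean. The knockout points lie above the control points for 8 genes and below them for Cldn3.

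Among the strand proteins, Cldn11 moved most. Cldn11 (ENSMUSG00000037625.7, chromosome 3, 31149920 to 31164324, plus strand, GRCm38) encodes the main claudin of Sertoli cell tight junctions. It was at 304.39, 304.37 and 310.02 FPKM in knockout libraries, against 64.13, 65.24 and 65.07 in control libraries. The 3 libraries of each group lay close together and far from those of the other group. The ratio of the means was 4.73 and the log2 difference 2.22 (SE 0.020, adjusted p = 9.2e-09), above that of 99.7% of tested rows. Cldn11 was also the most abundant of the 9 genes in both spermatocyte groups.

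Cldn3 (ENSMUSG00000070473.4, chromosome 5, 134986214 to 134987472, plus strand, GRCm38), which encodes a claudin placed in newly forming mouse Sertoli cell junctions, went the other way. It was at 0.9, 0.51 and 1.06 FPKM in knockout libraries and at 2.44, 1.74 and 2.95 in control libraries. All knockout values were below all control values, and both groups were low. The log2 difference was -0.89 (SE 0.17, adjusted p = 0.0037), with -1.44 at a pseudocount of 0.1 FPKM and -0.45 with quantile normalization. It passed the filter through its control libraries and 1 knockout library, and a filter at 5 FPKM removes it.

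Ocln (ENSMUSG00000021638.12, chromosome 13, 100496507 to 100552718, minus strand, GRCm38) encodes occludin, the tetraspan strand protein beside the claudins. It was at 15.51, 15.86 and 14.55 FPKM in knockout and 6.92, 6.34 and 6.74 in control libraries, without overlap, a log2 difference of 1.09 (SE 0.048, adjusted p = 2.9e-06).

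The 3 junctional adhesion molecule genes were all higher in knockout libraries. F11r (ENSMUSG00000038235.4, chromosome 1, 171437535 to 171464603, plus strand, GRCm38) encodes JAM-A, which is also found on sperm. It was at 93.27, 94.15 and 90.04 FPKM in knockout and 28.16, 27.32 and 29.04 in control libraries. The groups stood apart by far more than their spread, with a log2 difference of 1.68 (SE 0.032, adjusted p = 8.5e-08). Jam2 (ENSMUSG00000053062.16, chromosome 16, 84774123 to 84825928, plus strand, GRCm38) encodes JAM-B, the Sertoli cell partner of JAM-C in mouse testis. It was at 30.06, 30.46 and 34.09 FPKM in knockout and 9, 5.99 and 9.66 in control libraries. Control library 2 was the lowest, and no control value reached the knockout range. The log2 difference was 1.84 (SE 0.17, adjusted p = 8.5e-05). Jam3 (ENSMUSG00000031990.15, chromosome 9, 27097384 to 27155421, minus strand, GRCm38) encodes JAM-C, which mouse germ cells need to polarize as spermatids. It was at 43.88, 43.6 and 41.4 FPKM in knockout and 17.12, 17.99 and 18.42 in control libraries. The groups did not overlap, and the log2 difference was 1.22 (SE 0.039, adjusted p = 6.6e-07).

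Both plaque genes were higher. Tjp1 (ENSMUSG00000030516.14, chromosome 7, 65296165 to 65527781, minus strand, GRCm38) encodes ZO-1, the scaffold that binds claudins, occludin and actin. It was at 35.66, 35.38 and 34.58 FPKM in knockout and 23.69, 24.62 and 24.42 in control libraries. The groups were apart, but by the smallest ratio among the 8 genes that rose, 1.45 (log2 difference 0.52, SE 0.027, adjusted p = 6.3e-06). Cgn (ENSMUSG00000068876.14, chromosome 3, 94760069 to 94786492, minus strand, GRCm38) encodes cingulin, which links ZO-1 to actomyosin. In spermatocytes its row also names BC021767, annotated as a pseudogene on the same strand of chromosome 3 (94661830 to 94670696), so the value cannot be given to Cgn alone. The row was at 71.5, 71.15 and 70.62 FPKM in knockout and 19.13, 18.71 and 19.11 in control libraries. The groups lay far apart, with a log2 difference of 1.85 (SE 0.022, adjusted p = 1.8e-08).

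Gja1 (ENSMUSG00000050953.10, chromosome 10, 56377330 to 56402513, plus strand, GRCm38) encodes connexin43, the main gap junction protein of Sertoli cells. It was at 40.44, 41.29 and 41.98 FPKM in knockout and 7.04, 11.58 and 11.41 in control libraries. Control library 1 was lower than the others of its group, and the groups did not overlap. The log2 difference was 1.97 (SE 0.18, adjusted p = 8.7e-05).

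The order of the genes by level was not the same in both groups. In knockout libraries it was Cldn11, F11r, Cgn, Jam3, Gja1, Tjp1, Jam2, Ocln and Cldn3, and only the neighbours Jam3 and Gja1 overlapped. In control libraries it was Cldn11, F11r, Tjp1, Cgn, Jam3, Gja1, Jam2, Ocln and Cldn3, where Gja1 overlapped Jam2 and Jam2 overlapped Ocln. Tjp1 was above Cgn, Jam3 and Gja1 in control libraries and below them in knockout libraries.

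Each gene was then expressed as a percentage of the summed FPKM of the 22 Sertoli markers in the same library, as a description with no test. The clusterin gene Clu made up 23.0% of that sum in knockout and 22.3% in control libraries, and the 4 genes Clu, Aard, Cst12 and Cst9 made up most of it. On this scale Cldn11 was at 5.62%, 5.42% and 5.62% in knockout and 4.97%, 4.70% and 4.94% in control libraries, a ratio of 1.14. Gja1 was at 0.747% ± 0.013 in knockout and 0.749% ± 0.177 in control libraries, and Jam2 at 0.572% ± 0.041 and 0.621% ± 0.164 in the same order (SD, n = 3 each), and for both the groups overlapped. The other 6 genes were lower relative to the Sertoli sum in every knockout library than in any control library. The ratios were 0.903 for Cgn, 0.792 for F11r, 0.581 for Jam3, 0.553 for Ocln, 0.351 for Tjp1 and 0.083 for Cldn3. On the log2 scale the Cgn row rose by 1.85, above the median of 1.79 for the 22 Sertoli markers. Whether Cgn lay below the Sertoli markers thus depends on the measure used. Among the 8 genes that rose, Tjp1 lay furthest below the change of the Sertoli sum.

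**Figure D2:**
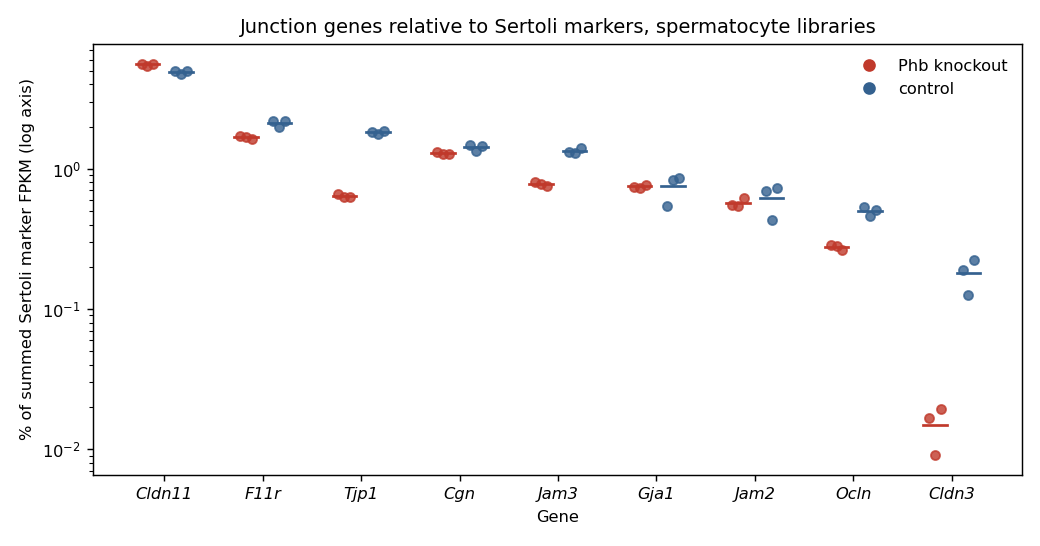
Each gene as a percentage of the summed FPKM of 22 Sertoli markers in the same spermatocyte library, on a log axis, knockout libraries in red and control libraries in blue, with a bar at each group mean. Cldn11 is slightly higher in knockout libraries, Gja1 and Jam2 overlap, and the other 6 genes are lower.

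Markers of other somatic cells moved too, not all in 1 direction. Over all tested rows 40.9% were called higher and 38.5% lower. The 9 Leydig cell markers summed to 192 to 196 FPKM in knockout and 19.9 to 20.6 in control libraries, with 6 of 6 tested rows called higher. The largest of these rows, at 80.33 to 84.79 FPKM in knockout and 3.04 to 3.16 in control libraries, names Jak3 beside Insl3. The row of Cyp11a1 also names Gm17322, so neither value can be given to the marker alone. The 8 endothelial markers, which include the claudin gene Cldn5, summed to 37.7 to 40.3 FPKM in knockout and 20.0 to 21.1 in control libraries, with 8 of 8 called higher. The 9 macrophage and other immune markers summed to 33.6 to 37.9 and 26.7 to 34.4 in the same order, with 6 called higher and 1 lower. Hsd3b6 (Leydig), Emcn and Vwf (endothelial) and Csf1r (immune) passed the filter through their knockout libraries alone. Aif1, the immune row called lower, passed it through its control libraries alone. F11r, Jam2, Jam3, Tjp1 and Gja1 are known in endothelial and other cells as well, and the part of these cells in the results was not tested. Of the 6 peritubular myoid markers 3 were called higher and 1 lower, of the 9 spermatogonium markers 2 higher and 5 lower, and of the 8 spermatid markers 0 higher and 8 lower. The spermatid markers summed to only 6.66 to 9.11 FPKM in knockout libraries, against 771 to 775 in control libraries. Rows of that list may thus have passed the filter through their control libraries alone. The 6 fibroblast markers summed to 15.2 to 15.4 FPKM in knockout and 35.0 to 36.9 in control libraries, with 0 of 5 tested rows called higher and 4 lower. The 5 epithelial markers summed to 18.8 to 19.8 and 29.0 to 30.1 in the same order, with 0 of 4 tested rows called higher and 2 lower.

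The second comparison set Phb knockdown GC2 cells against control GC2 cells. Of the 8 genes with a row, 4 reached the filter: Tjp1, F11r and Cgn were called higher in knockdown libraries and Jam3 lower. Over all 10791 tested rows 24.5% were called, 10.7% higher and 13.9% lower, and in 44.9% the groups did not overlap. Of the calls 43.5% were higher, against 53.6% with quantile normalization. The median log2 difference of all tested rows was -0.038. Cldn3, Ocln, Jam2 and Gja1 were not tested. Cldn3 and Ocln stayed under 1 FPKM in this line, while both plaque genes and F11r were above 5 FPKM in every library.

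**Figure D3:**
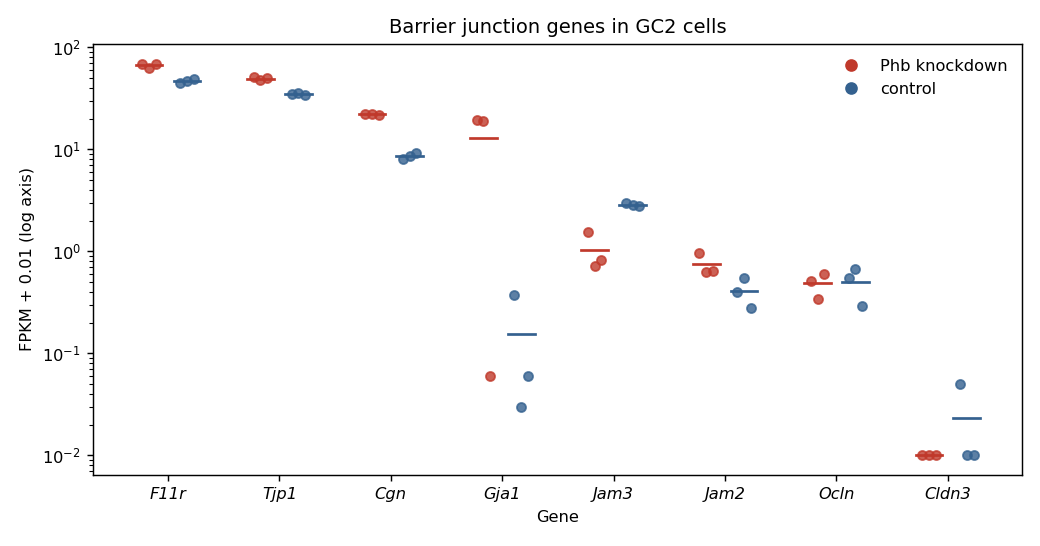
FPKM of 8 genes in each GC2 library on a log axis (0.01 was added for display), knockdown libraries in red and control libraries in blue, with a bar at each group mean. F11r, Tjp1 and Cgn are higher and Jam3 is lower in all knockdown libraries, and 2 of the 3 knockdown libraries of Gja1 stand far above all other Gja1 values.

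Of the strand genes, Cldn3 was listed at 0 in all knockdown libraries and at 0.04, 0 and 0 FPKM in control libraries. Ocln was at 0.5, 0.33 and 0.59 FPKM in knockdown and 0.54, 0.66 and 0.28 in control libraries, and the groups overlapped.

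Among the adhesion molecules F11r was the most abundant of all 8 genes in both GC2 groups. It was at 68.68, 63.27 and 69.35 FPKM in knockdown and 45.19, 46.74 and 49.31 in control libraries, without overlap (log2 difference 0.50, SE 0.058, adjusted p = 0.0038). Jam3 was at 1.55, 0.7 and 0.82 FPKM in knockdown and 2.96, 2.84 and 2.78 in control libraries. All knockdown values were below all control values, at a low level, and the filter was reached in the control libraries and knockdown library 1 (log2 difference -0.96, SE 0.17, adjusted p = 0.013). The log2 difference was -1.47 at a pseudocount of 0.1 FPKM, and the adjusted p lay at 0.047 to 0.05, just under the threshold, without knockdown library 3 or any 1 control library. Jam2 was at 0.95, 0.62 and 0.63 FPKM in knockdown and 0.39, 0.54 and 0.27 in control libraries, all under the filter. A further assembled row of Jam2 was at 0.11, 0.35 and 0.2 FPKM in knockdown and 0, 1.25 and 0 in control libraries.

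Both plaque genes were higher in knockdown GC2 cells. Tjp1 was at 50.92, 47.46 and 49.55 FPKM in knockdown and 35.21, 35.89 and 34.39 in control libraries, without overlap (log2 difference 0.48, SE 0.045, adjusted p = 0.0021). Cgn, which has a row of its own here, was at 22.22, 22.4 and 21.92 FPKM in knockdown and 8.04, 8.56 and 9.14 in control libraries. Its groups did not overlap (ratio of the means 2.59, log2 difference 1.28, SE 0.057, adjusted p = 0.00021), and its difference exceeded that of 98.7% of tested rows.

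Gja1 gave discordant values in GC2 cells. It was at 19.47, 18.86 and 0.05 FPKM in knockdown and 0.36, 0.02 and 0.05 in control libraries. Knockdown libraries 1 and 2 held about the same high value, while knockdown library 3 lay within the control range, so the groups overlapped and the row missed the filter. Without a filter the log2 difference was 2.73 with adjusted p = 0.27. Rows of this kind were not limited to Gja1: in knockdown library 3, 13 of the 3531 rows with at least 10 FPKM in both other knockdown libraries were at 0.5 FPKM or less. The same count was 17 and 16 in knockdown libraries 1 and 2, 14 to 22 in the control GC2 libraries, and 0 to 2 in the spermatocyte libraries.

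Markers of several cell types changed in GC2 cells too, not all in 1 direction. Over all tested rows 10.7% were called higher and 13.9% lower. The 5 epithelial markers summed to 622 to 690 FPKM in knockdown and 255 to 351 in control libraries, almost all of it from Krt18 and Krt19, both called higher, while Epcam and Cdh1 were at 0.07 FPKM or less in every library. The 6 fibroblast markers summed to 253 to 261 FPKM in knockdown and 359 to 375 in control libraries, with 4 called lower and 1 higher. The 20 Sertoli markers with a row summed to 226 to 228 and 225 to 234 in the same order, mostly from the cathepsin gene Ctsl. Of these, Clu averaged 22.2 ± 1.23 FPKM in knockdown and 10.1 ± 0.298 in control libraries (log2 difference 1.06, adjusted p = 0.00038), and Wt1 was also called higher. The row of Trf was called lower, but it also names Srprb and Gm20425, so its value cannot be given to Trf alone. Gata4 and Fshr lay between 2.99 and 4.21 FPKM in every library, while Sox9, Amh and Aard stayed under 1 FPKM. The 6 peritubular myoid markers summed to 23.8 to 33.9 FPKM in knockdown and 105 to 113 in control libraries, most of it from the smooth muscle actin gene Acta2 (16.8 ± 0.716 and 93.8 ± 4.53 in the same order, log2 difference -2.41, adjusted p = 3.1e-05). The spermatogonium marker Uchl1 was called higher (log2 difference 0.75, adjusted p = 0.0083). The immune marker Cd74 was called lower (-1.10, adjusted p = 0.002) and passed the filter through its control libraries alone. The part of any of these in the junction genes was not tested.

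The third comparison asked whether the change of a gene differed between both comparisons. It was tested for the 4 genes measured in both, in 1 limma fit of all 12 libraries over 9673 genes, of which 60.9% were called. Both kinds of sample have their own row sets and were normalized separately, so levels were not tested across them. Tjp1 rose in both, with a difference of 0.04 between the 2 log2 changes (knockout minus knockdown, 95% interval -0.07 to 0.16, adjusted p = 0.49). With median centring this difference was 0.16 (adjusted p = 0.02), so that the 2 changes are not shown to be equal. F11r and Cgn rose in both, and by more in spermatocytes, by 1.18 and 0.57 on the log2 scale (adjusted p = 2.6e-07 and 1.9e-05). Jam3 was higher in knockout spermatocytes and lower in knockdown GC2 cells, a difference of 2.18 (SE 0.18, adjusted p = 2.9e-06). Cell kind, knockdown against knockout and the mix of cells all differ between the comparisons, and their parts cannot be told apart.

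**Figure D4:**
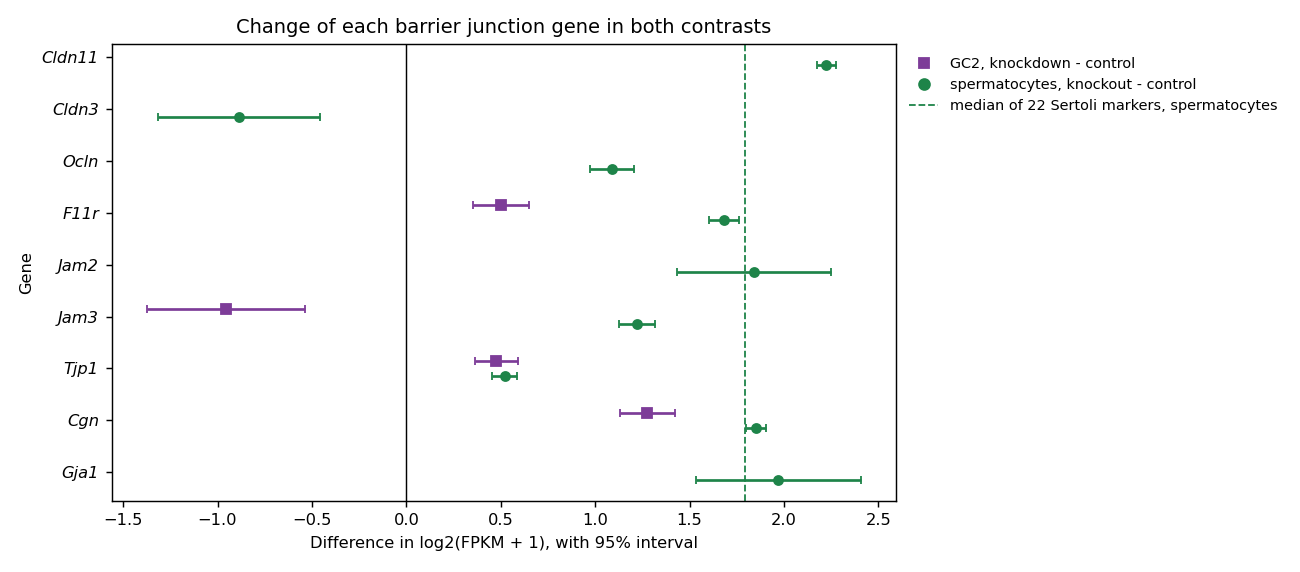
Difference in log2(FPKM + 1) with its 95% interval for each gene, GC2 knockdown minus control as purple squares and spermatocyte knockout minus control as green circles, with the median of the 22 Sertoli markers in spermatocytes as a dashed line. Tjp1 lies at 0.48 and 0.52 in both comparisons, Jam3 on opposite sides of 0, and Cldn11, Jam2, Cgn, F11r and Gja1 lie between 1.68 and 2.22 in spermatocytes.

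Set out by group, with levels of separately normalized files side by side and no test, Tjp1 averaged 49.3 ± 1.74 FPKM in knockdown GC2 cells, 35.2 ± 0.751 in control GC2 cells, 35.2 ± 0.560 in knockout spermatocytes and 24.2 ± 0.490 in control spermatocytes. F11r was at 67.1 ± 3.33, 47.1 ± 2.08, 92.5 ± 2.16 and 28.2 ± 0.860 FPKM in the same order, and the values of its 4 groups did not overlap. Ocln, Jam2 and Jam3 were at under 3 FPKM in every GC2 library and at over 5 in every spermatocyte library (SD, n = 3 each).

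Other genes of the same junctions were then counted from lists by role. Of 28 tight junction partners, 20 were tested in spermatocytes, and 11 rose and 4 fell in knockout libraries (median log2 difference 0.45), against 40.9% higher and 38.5% lower over all tested rows. Cldn7, among the 11, passed the filter through its knockout libraries alone. The cingulin-like gene Cgnl1, named after its value was seen, rose (log2 difference 1.53, adjusted p = 9.1e-07). The polarity genes Pard6b and Prkci rose (log2 differences 1.61 and 1.04). Ybx3, which encodes the ZO-1 binding Y-box factor ZONAB and is also expressed in male germ cells, fell to 18.8 ± 0.489 FPKM in knockout libraries, against 235 ± 1.035 in control libraries (log2 difference -3.58, adjusted p = 7e-09). Pard6a, a paralog of Pard6b also named after its value was seen, fell by 1.62 on the log2 scale. In GC2 cells 15 of the 28 were tested, and 2 rose and 0 fell, a share near the 10.7% called higher over all tested rows. Prkci was among those that rose, at 32.3 ± 1.26 FPKM in knockdown and 21.6 ± 1.08 in control libraries.

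Adhesion genes of the basal ectoplasmic specialization and desmosome were tested for 23 of 25 in spermatocytes. Of these, 17 rose and 1 fell (median 0.74), against 40.9% higher and 38.5% lower over all tested rows. Lamc3 and Dsc2, among the 17, passed the filter through their knockout libraries alone. The nectin genes parted: Nectin2, known from Sertoli cells, averaged 67.1 ± 2.03 FPKM in knockout and 17.3 ± 0.363 in control libraries, while Nectin3, known from mouse spermatids, was at 2.18 ± 0.055 and 14.5 ± 0.455 in the same order, log2 differences of 1.90 and -2.29 (adjusted p = 5.2e-08 and 5.9e-08). The integrin gene Itga6 rose by 1.34 and the row of the catenin gene Ctnnd1, shared with Tmx2, by 0.85. In GC2 cells 19 were tested, and 9 rose and 0 fell (median 0.16), against 10.7% higher and 13.9% lower over all tested rows. Cadm1, among the 9, passed the filter through its knockdown libraries alone. The afadin gene Afdn rose to 46.6 ± 4.87 FPKM in knockdown libraries, against 22.6 ± 0.381 in control libraries, and the α-catenin gene Ctnna1 to 118 ± 4.57, against 76.3 ± 2.28. The cadherin gene Cdh3 rose by 0.57 on the log2 scale, and the desmoplakin gene Dsp was at 2.70 ± 0.119 FPKM in knockdown and 0.817 ± 0.029 in control libraries (adjusted p = 0.00042), and passed the filter through its knockdown libraries alone.

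Of the other connexin and pannexin genes, 7 were tested in spermatocytes, and 2 rose and 3 fell (median 0.15). Over all tested rows 40.9% were called higher and 38.5% lower, so the counts of 7 genes are not read as a result about the list. Gjc1, which encodes connexin45, was at 7.11 ± 0.388 FPKM in knockout and 9.81 ± 0.694 in control libraries (log2 difference -0.41, adjusted p = 0.0011). Gjd3, which passed the filter through its control libraries alone, fell by 0.80. Gja6 rose to 2.16 ± 0.210 FPKM in knockout libraries, against 0.527 ± 0.124 in control libraries, and passed the filter through its knockout libraries alone. In GC2 cells 4 were tested, and only Gjb5 was called, lower by 0.89 (adjusted p = 0.0022), where 24.5% of all tested rows were called.

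Of 30 known regulators of the barrier, 24 rose and 1 fell in knockout spermatocytes (median 0.75), against 40.9% higher and 38.5% lower over all tested rows. Tgfb2 and Tgfbr2, among the 24, passed the filter through their knockout libraries alone. The list shares 8 genes with the Sertoli markers, and of the other 22, 16 rose and 1 fell (median 0.40). The transcription factor gene Gata4 averaged 46.6 ± 0.942 FPKM in knockout and 15.2 ± 0.281 in control libraries, Gata1 22.03 ± 0.154 and 4.97 ± 0.369, and Nr5a1, which encodes steroidogenic factor 1, 37.3 ± 0.703 and 10.6 ± 0.598 in the same order. Tgfb3, whose product loosens Sertoli cell junctions in rodents, was at 23.5 ± 0.348 FPKM in knockout and 6.08 ± 0.374 in control libraries (log2 difference 1.80, adjusted p = 2.5e-07). The 1 regulator that fell was Mtor, named after its value was seen, at -0.79. In GC2 cells 22 were tested, and 3 rose and 2 fell, near the 10.7% higher and 13.9% lower over all tested rows. The matrix protease gene Mmp9 was at 0.03 ± 0.017 FPKM in knockdown and 1.42 ± 0.021 in control libraries and passed the filter through the controls alone. Its inhibitor gene Timp1 fell by 0.89, and the kinase genes Rock1 and Fyn rose by 0.62 and 0.22. Wt1, the other gene that rose, was named after its value was seen (log2 difference 0.41, adjusted p = 0.043).

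**Figure D5:**
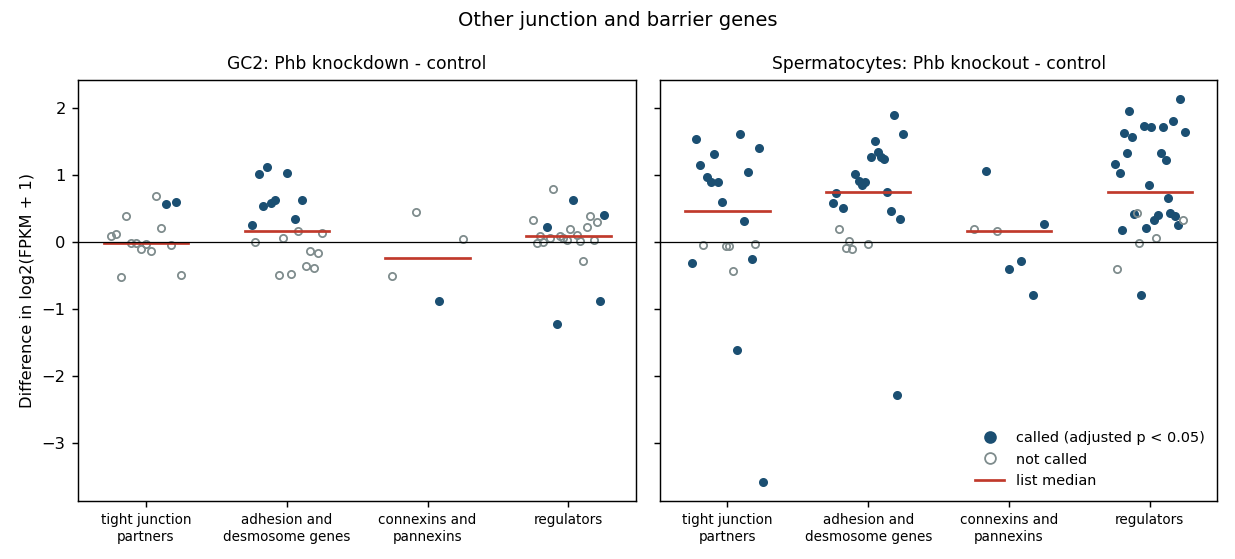
Difference in log2(FPKM + 1) of each tested gene of 4 lists of junction and barrier genes, GC2 knockdown minus control at left and spermatocyte knockout minus control at right. Filled points passed the test, open points did not, and red lines are list medians. The medians in spermatocytes are 0.45, 0.74, 0.15 and 0.75 from left to right, and single genes lie as low as -3.58.

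The genes with the most similar profiles were found by the root mean square distance of log2(FPKM + 1), centred on each row's own mean, over the 6 libraries of a kind and among rows with a mean of at least 5 FPKM (8691 in spermatocytes, 6169 in GC2). In spermatocytes these were the stress transcription factor gene Atf3 and Clec12b for Cldn11 (distances 0.026 and 0.027), the immediate early gene Fos and Map3k21 for the Cgn row (0.0097 and 0.014), Tmem206 and Rasl12 for F11r (0.024 and 0.025), and Ube2e1 and Snx5 for Tjp1 (0.011 and 0.016). For Gja1 they were Gas7 and S100a10 (0.032 and 0.12). Gas7 was at 27.93, 27.46 and 28.81 FPKM in knockout and 4.31, 7.36 and 7.23 in control libraries, lowest in control library 1 as Gja1 was. For Jam2 they were the imprinted gene Peg10 and Acvrl1 (0.086 and 0.090), for Jam3 Kbtbd2 and Thoc2 (0.020 and 0.026) and for Ocln Xpnpep1 and Slc41a1 (0.025 and 0.031). In GC2 cells they were Ehbp1 and Atp1b1 for Tjp1 (0.026 each), Tmem2 and Trip10 for F11r (0.023 and 0.033), and Osbpl3 and Mgst3 for Cgn (0.054 and 0.067). For Gja1 in GC2 cells the nearest row was Gm13509 (0.29), at 26.86, 23.89 and 0 FPKM in knockdown libraries and listed at 0 in all control libraries, and the next, Emc6, was far off (0.88). With 2 groups per kind, a small distance can come from a like difference between the groups alone.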

How the data were processed

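For each gene row, the authors deposited an FPKM value in every library, per the file headers. The submitters' processing notes list HISAT2 2.1.0, DESeq, GRCm38 and mm10, with no role for any. No source used here gives the quantifier, annotation release or filters. Replicates are described as biological, but no cultures or animals are named, so p-values reflect only the spread between these libraries, which may be technical. FPKM does not correct for composition.

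Rows without a gene name were left out of the tests. limma 3.58.1 in R 4.3.3, with a variance trend, was fitted per kind of sample on log2(FPKM + 1), which understates changes of low genes, and was tested on simulated data. Count tests were not run on FPKM values. Depth is not given by the files, and the steps between low values gave only a rough estimate, which was not used, so the counting error of low values is unknown. Positions are from GENCODE M21 and promoters from RefSeq. Figures were drawn with matplotlib 3.10.9 under Python 3.11.15.

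Alternatives were another pseudocount, other filters and scalings, the replicate block and each library left out. The genes and lists were chosen with earlier results of these data known. Named genes are the 9 genes, Phb, the called genes of each list with the lowest adjusted p, at most 4, the most abundant marker of a list and the 2 nearest profiles; other genes are named after their values were seen. Some genes that this rule would name are not reported here.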

Additional observations from a re-analysis of the deposited data

Results flagged for a closer look

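For 3 genes the change in knockout spermatocytes differed from the change in knockdown GC2 cells by limma's test of the difference, Benjamini-Hochberg adjusted over 9673 genes, of which 60.9% were called. For Jam3 the difference of the 2 log2 changes was 2.18 (adjusted p = 2.9e-06): it was higher in all 3 knockout spermatocyte libraries than in any control library, and lower in all 3 knockdown GC2 libraries than in any control library. For F11r it was 1.18 (adjusted p = 2.6e-07) and for Cgn 0.57 (adjusted p = 1.9e-05), and both rose in both comparisons. The Cgn row of the spermatocyte files also names BC021767 and that of the GC2 files does not. Cell kind and knockdown against knockout differ between the comparisons as well. The Sertoli marker sum was at 5419 to 5619 FPKM in knockout and 1292 to 1387 in control spermatocytes. In GC2 cells it was at 226 to 228 in knockdown and 225 to 234 in control libraries. The part of any of these in the differences was not tested.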

How the results depend on the processing

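The 8 rises and 1 fall in spermatocytes and the 3 rises and 1 fall in GC2 cells kept their direction and their call under each alternative that tested them: a pseudocount of 0.1 FPKM, no filter, quantile normalization, median centring, removal of mitochondrial rows, the replicate block, no variance trend, each library left out and, in GC2 cells, the sum of all rows of a gene. In 2 of these fits the row passed the filter through its control libraries alone, so its direction was largely set by the filter. They were Jam3 without GC2 knockdown library 1 (adjusted p = 0.0026) and Cldn3 without knockout library 3 (0.0064). A filter at 5 FPKM removed Jam3 in GC2 cells and Cldn3 in spermatocytes, so that 0 genes fell in each. Under it 764 rows in GC2 cells and 4344 in spermatocytes were called higher, 3896 lower in spermatocytes and 1 of the other junction and barrier genes lower in GC2 cells, with fewer rows tested. Without a filter the contrasts differed for 6 of 8 genes, Cldn3, Ocln and Jam2 added (-0.87, 1.10 and 1.53). The rows used for these added genes stayed under 1 FPKM in every GC2 library, so their differences rest mostly on the spermatocyte change. The share of all genes called in this setting is not given, so the count is not read as a result about the genes.

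The median log2 difference of all spermatocyte rows was 0.28 with quantile normalization and 0.21 with median centring, against 0.047. With quantile normalization Cldn3 was at -0.45 (adjusted p = 0.043; 0.00036 to 0.043 over its alternatives; 0.0026 to 0.05 for Jam3 in GC2 cells) and Tjp1 at 0.63.

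With 1 library left out, 662 to 876 rows rose and 833 to 1292 fell in GC2 cells, against 1153 and 1496; the first count moved over 1.5 times without knockdown replicate 2 or 3, the second without any control library. In spermatocytes 3595 to 6011 fell, against 6139, with 3618, 3595 and 3607 without control replicate 1, 2 and 3, where a row seen only in control libraries can no longer pass the filter. Of the other junction and barrier genes, 9 to 14 rose in GC2 cells, against 14, with 9 without knockdown replicate 2 or 3. For the other counts the cause was not tested.

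The replicate numbers were not taken as pairing the libraries, since not every r passed 0.1: same-numbered libraries deviated together with r = 0.12, 0.078 and 0.061 across rows in GC2 cells, where each correlated best with its own number, and 0.0074, -0.054 and 0.0074 in spermatocytes. With the replicate block 853 rows rose and 1132 fell in GC2 cells and 6427 and 6055 in spermatocytes, with 8 and 1 of the 9 genes in spermatocytes and 3 and 1 in GC2 cells as before. FPKM limits what can be said of genes near 0, such as Cldn3 and Jam3.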
